A study of Mus musculus with 14 samples.

Results

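Imprinted genes are genes of which mainly the copy inherited from the mother or mainly the copy inherited from the father is transcribed. The 41 genes described here were listed by symbol, were taken from well-known mouse imprinted clusters, and the listing rule uses no measured value. The list was nevertheless chosen with earlier results of these data known. All 41 were found among the 55416 genes of the deposited count table, and 39 of them passed the filter on low counts that precedes the tests.

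The choice of parental copy is set by DNA methylation laid down in the egg or the sperm at imprinting control regions and kept after fertilisation by zinc finger proteins with TRIM28 and DNMT1. In several clusters a long noncoding RNA made from the paternal copy, such as Airn or Kcnq1ot1, silences neighbouring protein-coding genes on the same chromosome, and some genes, such as Sfmbt2, carry noncanonical imprints based on histone methylation in extraembryonic tissue. Many imprinted genes act on growth of the fetus and placenta, for example through the insulin-like growth factor IGF2 and its scavenger receptor IGF2R.

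Total RNA was sequenced from 3 kinds of mouse stem cell line, all of a hybrid Mus molossinus by Mus musculus background. Epiblast stem cells (EpiSC, genotype XmolXmus-ΔTsix, grown with FGF2 and Activin A) gave 2 libraries per arm, wild-type trophoblast stem cells (TSC, grown in fibroblast-conditioned medium with FGF4) gave 2 per arm, and wild-type extraembryonic endoderm stem cells (XEN, grown in serum medium) gave 3 per arm. One arm received STM2457, an inhibitor of the RNA methyltransferase METTL3, at 50 µM for 12 h, and the other received DMSO. METTL3 writes N6-methyladenosine (m6A) on RNA, and the design asks what changes when it is inhibited. Each line differed from the others in origin and medium, and EpiSC also in genotype, so those factors cannot be told apart in comparisons of lines. Whether replicates came from separate cultures is not in the labels, so p-values measure the spread between these libraries, which may be technical. Values are total expression of both parental copies together; counts of each copy were not analysed here.

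Total counts were 18640099 to 21097380 per library in EpiSC, 17909934 to 20354242 in TSC and 6826496 to 10024628 in XEN. Replicates differed more in XEN: their counts gave a chi-square divided by its degrees of freedom of 9.29 to 24.1, and of 2.17 to 4.98 in the other lines. In every arm, each line had all 10 markers of its own type at 1 CPM or more on average. CPM is counts scaled to a common library total. The EpiSC DMSO arm also had counts for all 10 XEN and all 10 TSC markers. In DMSO libraries the XEN markers summed to 23750 to 26660 CPM in XEN and at most 1058 CPM elsewhere. The TSC markers summed to 3395 to 3584 CPM in TSC and at most 587 CPM elsewhere. The EpiSC markers summed to 1970 to 2038 CPM in EpiSC and at most 539 CPM elsewhere. Of these, Sox2 and Pou3f1 were higher in TSC than in EpiSC, and Krt8 of the TSC list was lowest in TSC. The 12 embryonic fibroblast markers summed to 137 to 145 CPM in EpiSC DMSO libraries. The sums were 16.2 to 17.8 CPM in TSC and 5.00 to 8.91 CPM in XEN. In EpiSC 9 of the 12 reached a mean of 1 CPM. The highest in the DMSO libraries were Col5a2 at 56.4 and 54.6 CPM, Col1a1 at 29.6 and 24.7 CPM, Twist1 at 27.0 and 28.0 CPM and Col1a2 at 17.6 and 17.4 CPM, while Lum was at 0, Dcn stood at 0.0993 and 0.141 CPM and Prrx1 at 0.348 and 0.472 CPM. The 10 differentiated trophoblast markers, of which the imprinted Ascl2 is a member, summed to 4.32 to 4.46 CPM in TSC DMSO libraries. In bulk RNA, fewer cells of a type and less RNA per cell cannot be told apart.

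Several imprinted noncoding RNAs and introns host microRNAs, and the hosts shown here had 0 counts in XEN or, for H19, at most 2.81 CPM there. Mature microRNAs were not measured by these libraries, so the sequences identify what the host transcripts contain and nothing on their levels. In RefSeq (GRCm38.p6), 14 microRNA genes lie on the same strand within Mirg, 3 within Rian and 1 each within Meg3, Rtl1, Mest, Igf2 and H19. Capitals mark the seed, bases 2 to 8, by which a microRNA pairs with its targets. The 26 mature entries of Mirg held 25 different seeds, miR-453 and miR-496a-5p sharing GGUUGCC.
miR-675-5p, within H19: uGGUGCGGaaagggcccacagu
miR-483-3p, within Igf2: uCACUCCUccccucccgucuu
miR-335-5p, within Mest: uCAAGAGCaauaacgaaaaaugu
miR-770-5p, within Meg3: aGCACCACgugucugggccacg
miR-370-3p, within Rian: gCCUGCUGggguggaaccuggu
miR-410-3p, within Mirg: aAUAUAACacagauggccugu
miR-453, within Mirg: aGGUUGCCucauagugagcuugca
miR-496a-5p, within Mirg: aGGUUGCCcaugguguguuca

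Promoters of 34 of the 41 genes were in the RefSeq table (GRCm38.p6), as windows of 250 bases before and 50 after the transcript start. The hexamer TGCCGC, the core of the motif that ZFP57 binds when it is methylated, was searched on both strands (TGCCGC or GCGGCA). It was found in 12 of 55 promoters of these genes (21.8%), against 3813 of 32851 promoters in the table (11.6%), and the median number of CG dinucleotides was 16 against 7. Windows of nearby starts of a gene can overlap almost wholly and were each counted, as at Mest. By gene, 11 of 34 had a match, and a share by gene over the whole table was not counted. A match is a string of letters in a window and was not tested as a binding site. The 4 promoters shown belong to genes on which the results below turn: Meg3 and Mest, with 0 counts in XEN, Mcts2, which rose with STM2457, and Peg3, which fell in XEN. Capitals mark the hexamer, which the Peg3 window does not contain.
Meg3, chr12:109540746-109541045, plus strand: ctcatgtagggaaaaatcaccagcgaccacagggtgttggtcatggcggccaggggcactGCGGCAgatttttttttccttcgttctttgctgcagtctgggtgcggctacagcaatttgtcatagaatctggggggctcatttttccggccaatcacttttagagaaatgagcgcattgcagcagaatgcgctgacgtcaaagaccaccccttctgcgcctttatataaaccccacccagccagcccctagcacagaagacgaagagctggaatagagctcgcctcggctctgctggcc
Mest, chr6:30737800-30738099, plus strand: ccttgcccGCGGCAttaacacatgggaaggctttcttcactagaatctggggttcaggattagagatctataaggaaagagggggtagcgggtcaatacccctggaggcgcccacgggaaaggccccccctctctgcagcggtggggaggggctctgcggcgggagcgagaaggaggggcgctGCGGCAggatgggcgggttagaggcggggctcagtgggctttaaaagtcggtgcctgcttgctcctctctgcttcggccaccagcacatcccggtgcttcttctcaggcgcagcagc
Mcts2, chr2:152686898-152687197, plus strand: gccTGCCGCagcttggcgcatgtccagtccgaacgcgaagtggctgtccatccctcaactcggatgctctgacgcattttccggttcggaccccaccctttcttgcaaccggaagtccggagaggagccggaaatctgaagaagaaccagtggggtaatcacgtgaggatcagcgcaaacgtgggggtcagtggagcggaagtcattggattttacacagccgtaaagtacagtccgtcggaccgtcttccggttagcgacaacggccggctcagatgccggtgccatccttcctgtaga
Peg3, chr7:6730370-6730669, minus strand: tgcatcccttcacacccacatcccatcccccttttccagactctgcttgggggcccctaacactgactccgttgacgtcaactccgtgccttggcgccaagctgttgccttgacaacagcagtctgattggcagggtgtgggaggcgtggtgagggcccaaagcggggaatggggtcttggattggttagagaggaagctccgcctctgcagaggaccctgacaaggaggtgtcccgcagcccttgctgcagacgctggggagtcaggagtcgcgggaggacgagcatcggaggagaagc

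The first comparison asked how the imprinted genes differ between the lines in DMSO. H19 and Igf2 set TSC apart, the noncoding RNAs of the Dlk1-Meg3 cluster were highest in EpiSC and absent from the XEN counts, and Kcnq1ot1 and Airn were highest in XEN. Among the members with any count in DMSO, 14 had their highest mean in EpiSC, 14 in TSC and 12 in XEN. A mean of at least 1 CPM in DMSO was reached by 37 members in EpiSC, 37 in TSC and 27 in XEN.

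Of the 39 tested members, 20 were higher and 13 lower in EpiSC than in XEN, against 36.6% and 35.1% of all tested genes called in these directions (edgeR's quasi-likelihood test, Benjamini-Hochberg adjusted p under 0.05). In TSC against XEN 19 were higher and 13 lower, against 36.5% and 36% of all tested genes. In EpiSC against TSC 17 were higher and 16 lower, against 27.4% and 27% of all tested genes. The median log2 difference of the members was 0.58, 0.40 and 0.03 in these 3 comparisons, with genes at 0 counts entered at their bound or not, and 0.02, 0 and 0 over all tested genes. The 3 comparisons share their DMSO libraries. With scaling to ribosomal protein genes the split of the members was 16 higher and 17 lower in EpiSC against XEN, 14 and 19 in TSC against XEN, and 18 and 14 in EpiSC against TSC. The share of called genes that were higher was then 26.2%, 19.6% and 66.7%, in place of 51.1%, 50.3% and 50.4%, and the median of all genes stood at -0.73, -1.03 and 0.28. Only H13 in both comparisons with XEN, and Gnas in TSC against XEN, then had the opposite sign among the called members.

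**Figure D1:**
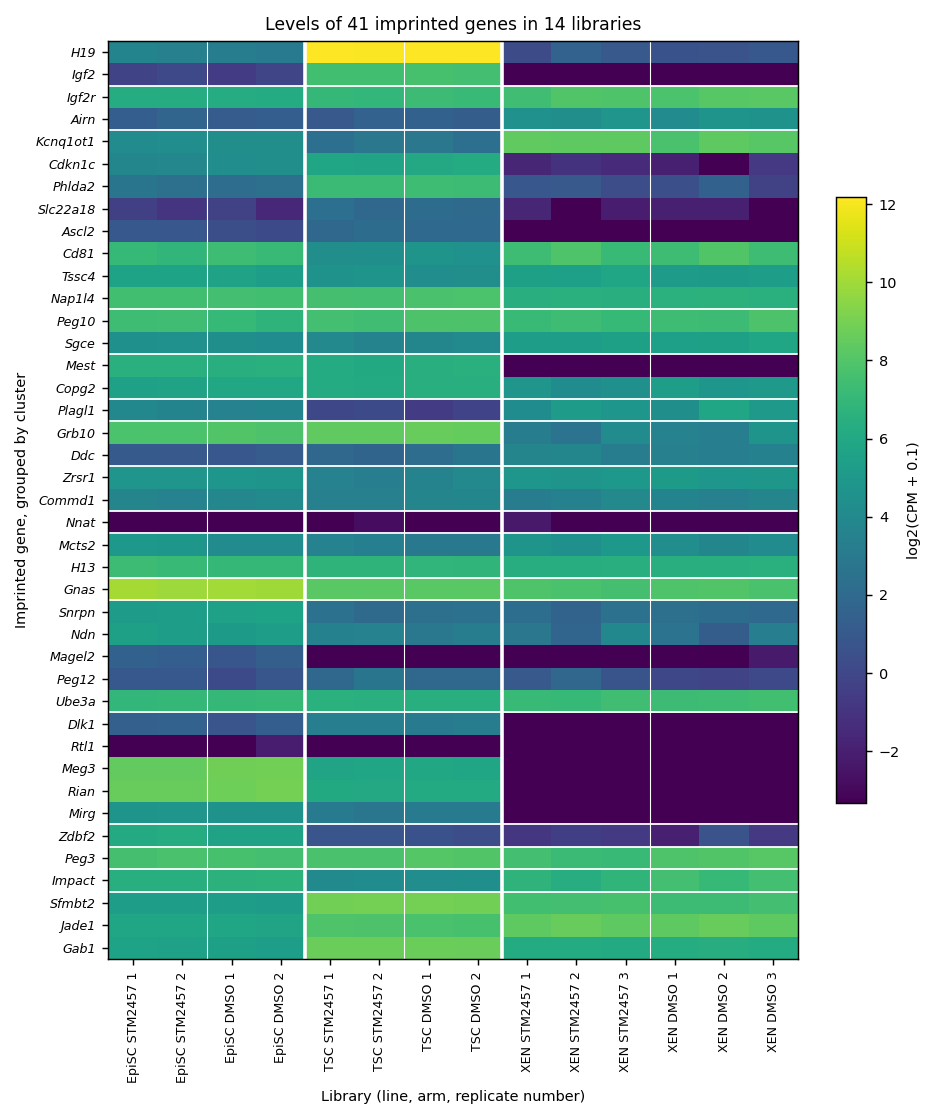
Levels of the 41 imprinted genes (rows, grouped by cluster with white lines between clusters) in the 14 libraries (columns, STM2457 left of DMSO within each line), as log2(CPM + 0.1), where CPM is counts scaled to a common library total. The darkest cells are 0 counts: 8 genes are at 0 in all 6 XEN libraries, and the H19 row is brightest in the 4 TSC libraries.

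At the H19-Igf2 cluster on chromosome 7, H19 is a maternally expressed noncoding RNA and Igf2 a paternally expressed growth factor gene. H19 stood at 9.14 and 8.54 CPM in EpiSC DMSO libraries, 4685 and 4620 CPM in TSC, and 1.41, 1.46 and 1.83 CPM in XEN. The line groups did not overlap, and H19 was higher in TSC than in XEN by 11.51 ± 0.211 on the log2 scale (edgeR adjusted p = 7.32e-16). Igf2 stood at 0.546 and 0.849 CPM in EpiSC, 207 and 187 CPM in TSC, and 0 in all 6 XEN libraries. A count of 0 over the 3 XEN DMSO libraries allows up to 0.145 CPM (3 counts over the group, counting error only), so Igf2 was at least 1362-fold higher in TSC and at least 4-fold higher in EpiSC than in XEN. Per kb of merged exon, H19 was the most abundant member in TSC at 1891 CPM per kb, followed by Phlda2 at 145. Fibroblasts of the embryo also transcribe H19 and Igf2, and the fibroblast marker sums above were highest in EpiSC. Their part in the EpiSC values was not tested.

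At the Igf2r-Airn cluster on chromosome 17, Igf2r encodes the receptor that takes up and clears IGF2, and Airn is the paternal noncoding RNA that silences it in cis outside neurons. Igf2r stood at 79.3 and 75.7 CPM in EpiSC, 157 and 140 CPM in TSC, and 221, 284 and 295 CPM in XEN. Its log2 difference from XEN was -1.78 in EpiSC and -0.85 in TSC. Airn stood at 2.23 and 2.40 CPM in EpiSC, 2.76 and 2.26 CPM in TSC, and 17.6, 26.2 and 25.2 CPM in XEN. Both genes were thus called higher in XEN than in either other line. They overlap on opposite strands, and whether the counting used strand is not stated, so each value can hold reads of the other gene. The same holds for Kcnq1ot1 with Kcnq1, for Mest with Copg2, and for Zrsr1 within an intron of Commd1.

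The Kcnq1 cluster on chromosome 7 was measured through 8 members: the paternal noncoding RNA Kcnq1ot1 and 7 protein-coding genes expressed mainly from the maternal copy. Kcnq1ot1 stood at 19.9 and 19.9 CPM in EpiSC, 7.03 and 4.92 CPM in TSC, and 212, 324 and 284 CPM in XEN. The means of 4 of the protein-coding genes (Cdkn1c, Phlda2, Slc22a18 and Ascl2) had the opposite order, highest in TSC and lowest in XEN. Cdkn1c, which encodes the cell cycle inhibitor p57, stood at 19.4 and 20.2 CPM in EpiSC, 66.3 and 73.2 CPM in TSC, and 0.157, 0 and 0.488 CPM in XEN. Phlda2, a brake on placental growth, stood at 4.57 and 5.28 CPM in EpiSC, 164 and 162 CPM in TSC, and 1.25, 2.75 and 0.732 CPM in XEN. Slc22a18, a membrane transporter, averaged 0.49, 4.19 and 0.106 CPM in EpiSC, TSC and XEN. Ascl2, a transcription factor of trophoblast, averaged 1.14 and 3.85 CPM in EpiSC and TSC and had 0 counts in XEN, where the bound makes it at least 7-fold and 26-fold higher in those lines. All 4 were called higher in EpiSC and in TSC than in XEN, Slc22a18 in EpiSC at an adjusted p of 0.0431, and all 4 were lower in EpiSC than TSC. The log2 difference of Kcnq1ot1 from XEN was -3.78 ± 0.19 in EpiSC and -5.51 ± 0.214 in TSC (edgeR adjusted p = 4.42e-11 and 1.69e-12).

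Of the other protein-coding members, Cd81 and Tssc4 did not share that order of means, and Nap1l4 did. Cd81, a tetraspanin of the cell surface, averaged 154 CPM in EpiSC, 24.5 CPM in TSC and 194 CPM in XEN, with a log2 difference of -2.98 in TSC against XEN. Tssc4, a spliceosome assembly factor, averaged 44.5, 20.0 and 37.9 CPM in these lines, and was called lower in TSC than in XEN but not in EpiSC against XEN (adjusted p = 0.132). Nap1l4, a histone chaperone, averaged 186, 217 and 97.2 CPM and was called higher in EpiSC and TSC than in XEN, but not in EpiSC against TSC (adjusted p = 0.0615). Per kb, Cd81 was the most abundant member in XEN at 67.2 CPM per kb. The host gene Kcnq1 itself held at most 0.291 CPM in any DMSO library.

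**Figure D2:**
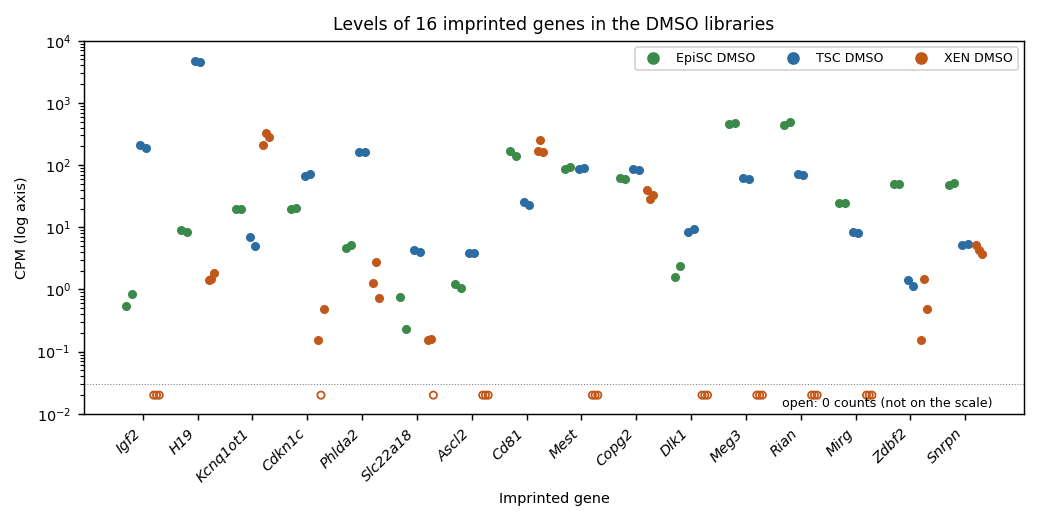
CPM of 16 imprinted genes in each DMSO library (log axis), with EpiSC left, TSC in the middle and XEN on the right for each gene; each point is 1 library and open points below the dotted line are libraries with 0 counts, which lie off the scale. Igf2, Ascl2, Mest, Dlk1, Meg3, Rian and Mirg are at 0 in all XEN DMSO libraries, and Kcnq1ot1 is the reverse, at 212 to 324 CPM in XEN against 4.92 to 19.9 CPM in the other lines.

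The Dlk1-Meg3 cluster on chromosome 12 has maternally expressed noncoding RNAs (Meg3, Rian and Mirg, which carries most of the microRNA sequences above) and paternally expressed protein-coding genes (Dlk1, a Notch-pathway ligand relative, and Rtl1, a retrotransposon-derived placental gene). In all 6 XEN libraries these 5 members had 0 counts. Meg3 stood at 456 and 471 CPM in EpiSC DMSO libraries and 62.3 and 59.0 CPM in TSC, at least 3206-fold and 419-fold above the XEN bound. Rian stood at 442 and 501 CPM in EpiSC and 70.8 and 70.5 CPM in TSC, at least 3264-fold and 488-fold above it. Mirg stood at 24.98 and 24.4 CPM in EpiSC and 8.34 and 8.24 CPM in TSC, at least 170-fold and 57-fold above it. All 3 noncoding RNAs were higher in EpiSC than in TSC, by 2.93 ± 0.116, 2.74 ± 0.119 and 1.57 ± 0.181 on the log2 scale. Dlk1 went the other way, with 1.59 and 2.40 CPM in EpiSC and 8.38 and 9.29 CPM in TSC (log2 difference -2.14 ± 0.271, edgeR adjusted p = 1.83e-05). It was at least 13-fold and 61-fold above the XEN bound. Rtl1, not tested, had 3 counts in 1 EpiSC DMSO library and 0 elsewhere. Dio3, at the far end of the cluster and no member, held at most 0.236 CPM in any library.

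Mest and Copg2 lie next to each other on chromosome 6, Mest being paternally expressed and hosting miR-335. Mest stood at 87.5 and 92.3 CPM in EpiSC, 85.0 and 91.3 CPM in TSC, and 0 in all 6 XEN libraries, so that EpiSC was at least 622-fold and TSC at least 609-fold above the XEN bound. EpiSC and TSC overlapped for Mest (adjusted p = 0.874). Copg2, a coatomer subunit of vesicle transport, stood at 62.1 and 59.7 CPM in EpiSC, 86.0 and 84.6 CPM in TSC, and 39.8, 28.8 and 32.6 CPM in XEN. Peg10, a retrotransposon-derived gene required for the placenta, averaged 121, 231 and 187 CPM in EpiSC, TSC and XEN. Its neighbour Sgce, which encodes epsilon-sarcoglycan, stood at 21.3 and 18.9 CPM in EpiSC, 13.7 and 16.6 CPM in TSC, and 43.9, 46.0 and 54.7 CPM in XEN.

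The paternally expressed genes of the Snrpn-Ube3a cluster on chromosome 7, the Prader-Willi region, were highest in EpiSC except Peg12. Snrpn, an Sm protein of the spliceosome, stood at 47.5 and 52.2 CPM in EpiSC, 5.23 and 5.37 CPM in TSC, and 5.17, 4.37 and 3.78 CPM in XEN. Ndn, which encodes the growth suppressor necdin, averaged 37.4, 8.28 and 5.99 CPM. Magel2, a MAGE family gene, averaged 2.09 CPM in EpiSC, at least 28-fold above the TSC bound, with 0 counts in TSC and 1 count in 1 XEN library. Peg12, a GSK3-binding protein gene, averaged 1.35, 3.53 and 0.909 CPM. Ube3a, the ubiquitin ligase that is maternally expressed in neurons, averaged 130, 86.0 and 169 CPM. Snrpn and its relative Snrpb share 80.6% of 697 aligned transcript positions, with a longest identical stretch of 32 bases. Only a read lying wholly within an identical stretch matches both, and a longer read of the aligned part spans a difference.

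Other single-gene and small clusters also set the lines apart. Zdbf2, a zinc finger gene on chromosome 1, stood at 49.6 and 49.9 CPM in EpiSC, 1.41 and 1.16 CPM in TSC, and 0.157, 1.46 and 0.488 CPM in XEN. Gnas, which encodes the stimulatory G protein alpha subunit, stood at 1045 and 1021 CPM in EpiSC, 302 and 301 CPM in TSC, and 238, 254 and 210 CPM in XEN. Per kb, Gnas was the most abundant member in EpiSC at 92.4 CPM per kb. Impact, which binds GCN1 and limits the integrated stress kinase GCN2, stood at 99.3 and 106 CPM in EpiSC, 19.5 and 21.2 CPM in TSC, and 190, 134 and 188 CPM in XEN. Plagl1, a zinc finger transcription factor, stood at 11.9 and 12.5 CPM in EpiSC, 0.581 and 0.753 CPM in TSC, and 21.0, 54.7 and 33.4 CPM in XEN.

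Peg3, a zinc finger gene on chromosome 7, was among the members that differed least, at 204 and 187 CPM in EpiSC, 270 and 247 CPM in TSC, and 245, 256 and 284 CPM in XEN. Its log2 difference in EpiSC against XEN was -0.42, past the test, and it did not pass the test in TSC against XEN (adjusted p = 0.906). Grb10, an adaptor that restrains insulin and IGF1 receptors, stood at 256 and 229 CPM in EpiSC, 384 and 368 CPM in TSC, and 11.7, 10.0 and 26.4 CPM in XEN. Its neighbour Ddc, dopa decarboxylase, averaged 1.98, 5.44 and 10.6 CPM in these lines. The retrogene Zrsr1, a relative of a splicing factor, stood at 27.8 and 25.6 CPM in EpiSC, 12.4 and 15.5 CPM in TSC, and 35.2, 28.8 and 29.6 CPM in XEN, while Commd1 averaged 15.3, 13.4 and 12.1 CPM and was called in no comparison of lines. H13, a signal peptide peptidase, averaged 131, 116 and 87.6 CPM. Nnat, neuronatin, was not tested, with 1 count in each of 2 libraries.

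The noncanonically imprinted genes were higher in the extraembryonic lines. Sfmbt2, a Polycomb group gene needed in trophoblast, stood at 40.0 and 38.1 CPM in EpiSC, 502 and 466 CPM in TSC, and 156, 161 and 189 CPM in XEN. Gab1, an adaptor of receptor tyrosine kinases, averaged 42.3, 404 and 77.4 CPM, and Jade1, a scaffold of a histone acetyltransferase complex, averaged 56.0, 207 and 349 CPM. For all 3, EpiSC was called lower than both other lines, with log2 differences from -0.87 ± 0.0979 for Gab1 against XEN to -3.63 ± 0.129 for Sfmbt2 against TSC.

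The second comparison asked which imprinted genes change when METTL3 is inhibited. Peg3 and Impact fell in XEN, Copg2 fell in XEN, and the retrogene Mcts2 rose in XEN and in EpiSC. No tested member of the Dlk1-Meg3, H19-Igf2 or Igf2r-Airn clusters passed the test in any line in the fit of all 14 libraries without a block. In XEN this was fixed in advance for Igf2 and the Dlk1-Meg3 members, which had 0 counts in both arms. Of the 39 tested members, 4 were called in XEN, 1 in EpiSC and 0 in TSC, against 4.15%, 1.68% and 0.966% of all tested genes. Igf2, Ascl2, Mest, Dlk1, Meg3, Rian and Mirg, among the 39, had 0 counts in all XEN libraries. They could not be called in XEN in any setting, and the XEN median below includes them. The median log2 fold change of the tested members was -0.01 in XEN, 0.09 in EpiSC and -0.08 in TSC, against 0 over all tested genes in each.

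In XEN, Peg3 stood at 189, 155 and 146 CPM with STM2457, against 245, 256 and 284 CPM with DMSO. The groups did not overlap, and Peg3 fell by 0.68 ± 0.106 on the log2 scale (edgeR adjusted p = 0.00181). Impact stood at 108, 80.7 and 114 CPM with STM2457, against 190, 134 and 188 CPM with DMSO. All STM2457 libraries lay below all DMSO libraries, and Impact fell by 0.76 ± 0.139 (edgeR adjusted p = 0.00577). The lowest Impact library of each arm carried the same replicate number.

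Copg2 stood at 27.7, 18.6 and 22.1 CPM with STM2457 in XEN, against 39.8, 28.8 and 32.6 CPM with DMSO. It fell by 0.56 ± 0.14 (edgeR adjusted p = 0.033), with no overlap. Mcts2, a retrogene copy of Mcts1 that lies in an intron of H13 and is expressed from the paternal copy, stood at 26.3, 21.8 and 31.1 CPM with STM2457 in XEN, against 19.7, 14.1 and 18.1 CPM with DMSO. It rose by 0.61 ± 0.155 (edgeR adjusted p = 0.0353). The calls of Copg2 and Mcts2 in XEN were each lost without any 1 of 12 libraries, with adjusted p-values up to 0.0989 and 0.108. These were the 8 TSC and EpiSC libraries and, for Copg2, XEN DMSO 1 and 3 and XEN STM2457 2 and 3, or, for Mcts2, XEN DMSO 2 and 3 and XEN STM2457 1 and 3. Those of Peg3 and Impact held without each library.

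The spread behind these calls was estimated over all 3 lines. On the XEN libraries alone 0 members were called, against 0.191% of all genes tested there, and Peg3 and Impact had adjusted p-values of 0.101 and 0.148. Same-numbered XEN libraries of the arms deviated together from their group means (correlations of 0.22, 0.38 and 0.34). The labels state no pairing, so a pairing by number was inferred from these data. With the number as a block 8 members were called in XEN, against 13.3% of all tested genes: those 4 and Tssc4 (0.35), Peg12 (1.28), Grb10 (-0.55) and Igf2r (-0.26). On the XEN libraries alone with the block, a setting chosen after seeing the data, 6 were called (Peg3, Impact, Copg2, Mcts2, Tssc4 and Grb10), against 11.4% of genes. Peg3 then had an adjusted p of 0.0012 and Impact one of 0.000179.

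**Figure D3:**
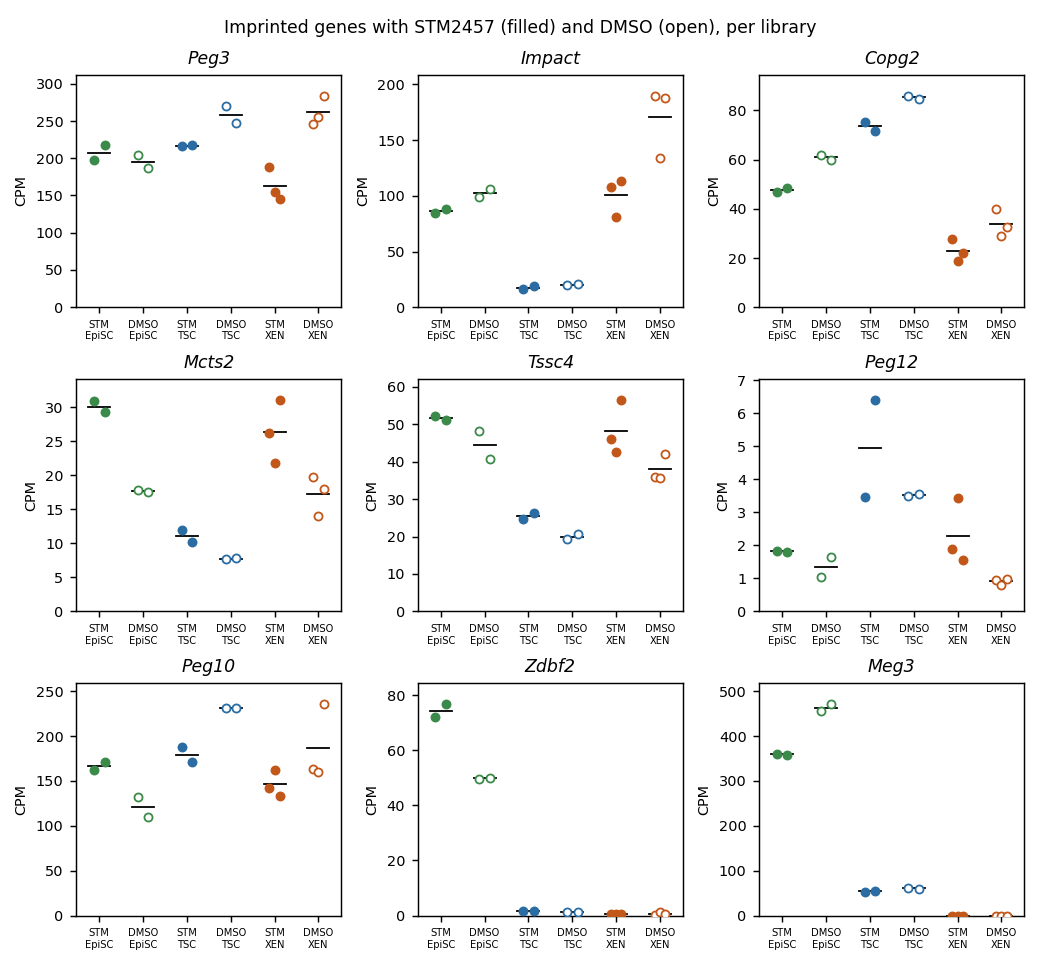
CPM of 9 imprinted genes in each library (linear axes from 0), with STM2457 (filled) left of DMSO (open) for EpiSC, TSC and XEN; each point is 1 library and the black bars are means. Peg3 with STM2457 lies at 146 to 189 CPM in XEN, against 245 to 284 CPM with DMSO, and all Mcts2 points with STM2457 lie above the DMSO points of the same line.

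In EpiSC, Mcts2 stood at 30.9 and 29.3 CPM with STM2457, against 17.9 and 17.5 CPM with DMSO. It rose by 0.77 ± 0.171 (edgeR adjusted p = 0.0309), and the adjusted p was 0.0648 to 0.302 without any 1 of the 8 TSC and EpiSC libraries. DESeq2 called 7 members in EpiSC, a count given without its share of all genes. On the EpiSC libraries alone 12 members were called, against 29.2% of all genes tested there. The share among the members tested was close to this, so the count says nothing on imprinted genes as a group. In that fit H19 (0.39), Peg10 (0.45), Zdbf2 (0.57), H13 (0.21) and Mcts2 were higher, and Cdkn1c (-0.49), Cd81 (-0.29), Copg2 (-0.36), Snrpn (-0.38), Meg3 (-0.38), Rian (-0.29) and Impact (-0.26) were lower. The fibroblast marker sum was 132 to 134 CPM with STM2457, against 137 to 145 CPM with DMSO, and its markers moved both ways. Col1a1 stood at 19.8 and 17.1 CPM with STM2457, against 29.6 and 24.7 CPM with DMSO. Twist1 stood at 34.3 and 37.3 CPM with STM2457, against 27.0 and 28.0 CPM with DMSO. A link of these markers to H19 was not tested. Zdbf2 stood at 71.9 and 76.7 CPM with STM2457, against 49.6 and 49.9 CPM with DMSO, and had an adjusted p of 0.115 when the spread came from all lines. Meg3 stood at 360 and 358 CPM with STM2457, against 456 and 471 CPM with DMSO (adjusted p = 0.114 with the spread of all lines). Peg10 stood at 163 and 171 CPM with STM2457, against 133 and 110 CPM with DMSO. Neither Zdbf2, Meg3 nor Peg10 overlapped between the arms in EpiSC, but these 3 were chosen for display after their values were seen. The share of all genes without overlap was not counted, so this says nothing on these genes beyond their values.

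In TSC edgeR called 0 members, against 0.966% of all tested genes. An unadjusted p under 0.05 was found for 7 (Cdkn1c, Tssc4, Peg10, Mest, Ddc, Zrsr1 and Mcts2), and DESeq2 called 2. These last counts stand without a share of all genes, so they say nothing on imprinted genes as a group. Mcts2 stood at 11.9 and 10.2 CPM with STM2457, against 7.70 and 7.78 CPM with DMSO (log2 fold change 0.51 ± 0.185, adjusted p = 0.224). H19 stood at 4607 and 4384 CPM with STM2457, against 4685 and 4620 CPM with DMSO, and Igf2 at 179 and 177 CPM with STM2457, against 207 and 187 CPM with DMSO. On the TSC libraries alone 13 members were called, against 30.2% of all genes tested there. The share among the members tested was close to this, so this count too says nothing on the group. Tssc4 (0.36), Mcts2 (0.52), Ndn (0.47) and Jade1 (0.21) were higher, and Igf2r (-0.21), Cdkn1c (-0.37), Nap1l4 (-0.16), Peg10 (-0.36), Mest (-0.29), Copg2 (-0.21), Ddc (-0.69), Zrsr1 (-0.36) and Peg3 (-0.25) were lower.

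Averaged over the lines with equal weight, 6 of 39 members were called, against 13.4% of all tested genes. Igf2, Ascl2, Mest, Dlk1, Meg3, Rian and Mirg had 0 counts in XEN, and Magel2 had 0 in TSC. Their mean effect had no usable estimate, with or without the replicate block, so they could not be called in it. Mcts2 rose by 0.63 ± 0.0986 (edgeR adjusted p = 0.00053), and every one of the 7 STM2457 libraries lay above every DMSO library of its line. Tssc4 rose by 0.30 ± 0.0781 (adjusted p = 0.0158). With STM2457 it stood at 52.2 and 51.2 CPM in EpiSC, 24.6 and 26.2 CPM in TSC and 45.9, 42.5 and 56.5 CPM in XEN. With DMSO it stood at 48.1 and 40.8 CPM in EpiSC, 19.3 and 20.6 CPM in TSC and 36.0, 35.6 and 42.1 CPM in XEN. Every STM2457 library lay above every DMSO library of its line. How many of all genes have arms so separated was not counted, for this or any other statement of overlap. Peg12 rose by 0.75 ± 0.225 (adjusted p = 0.0364) at low levels. With STM2457 its values were 1.84 and 1.81 CPM in EpiSC, 3.47 and 6.41 CPM in TSC and 1.89, 3.45 and 1.56 CPM in XEN. With DMSO they were 1.04 and 1.65 CPM in EpiSC, 3.49 and 3.57 CPM in TSC and 0.94, 0.81 and 0.976 CPM in XEN. The arms overlapped in TSC.

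Copg2 fell by 0.37 ± 0.0842 (adjusted p = 0.00714), and its arms did not overlap in any line. In EpiSC it stood at 46.9 and 48.6 CPM with STM2457, against 62.1 and 59.7 CPM with DMSO, and in TSC at 75.4 and 71.6 CPM with STM2457, against 86.0 and 84.6 CPM with DMSO. Impact fell by 0.41 ± 0.0934 (adjusted p = 0.0082), again without overlap. In EpiSC it stood at 84.5 and 88.4 CPM with STM2457, against 99.3 and 106 CPM with DMSO, and in TSC at 16.3 and 18.8 CPM with STM2457, against 19.5 and 21.2 CPM with DMSO. Peg3 fell by 0.28 ± 0.0694 (adjusted p = 0.0122), though in EpiSC it stood at 198 and 217 CPM with STM2457 against 204 and 187 CPM with DMSO. In TSC it stood at 216 and 217 CPM with STM2457, against 270 and 247 CPM with DMSO. With the replicate block 10 of 39 members were called in the mean effect, against 25.6% of all tested genes, so the shares were close. They were the 6 and Igf2r (-0.16), Cd81 (-0.20), Grb10 (-0.27) and Ndn (0.39).

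Without 1 library some of the mean effects no longer passed. Peg12 had adjusted p-values up to 0.163 without any 1 of 9 libraries (XEN DMSO 1 and 3, XEN STM2457 2, TSC DMSO 1 and 2, TSC STM2457 2, EpiSC DMSO 1, and EpiSC STM2457 1 and 2). Tssc4 had up to 0.0798 without TSC DMSO 1, TSC STM2457 2, EpiSC DMSO 2 or EpiSC STM2457 1 or 2, and Peg3 up to 0.0537 without EpiSC DMSO 1 or EpiSC STM2457 1. Without EpiSC STM2457 1, 3 members were called. Mcts2 passed in all 21 alternatives run for its mean effect.

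Whether the effect differs between lines was tested directly. edgeR called 0 members, against 0.00543% of all tested genes. An unadjusted p under 0.05 was found for 4 members (Peg10, Ddc, Peg3 and Impact), and DESeq2 called 1. These last counts stand without a share of all genes. With the replicate block 2 were called, Peg3 (adjusted p = 0.00856) and Impact (adjusted p = 0.0119), against 1.42% of all tested genes. Without the block, the effect on Peg3 was more positive than in XEN by 0.77 in EpiSC and by 0.43 in TSC on the log2 scale, and that on Impact by 0.51 and 0.55.

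**Figure D4:**
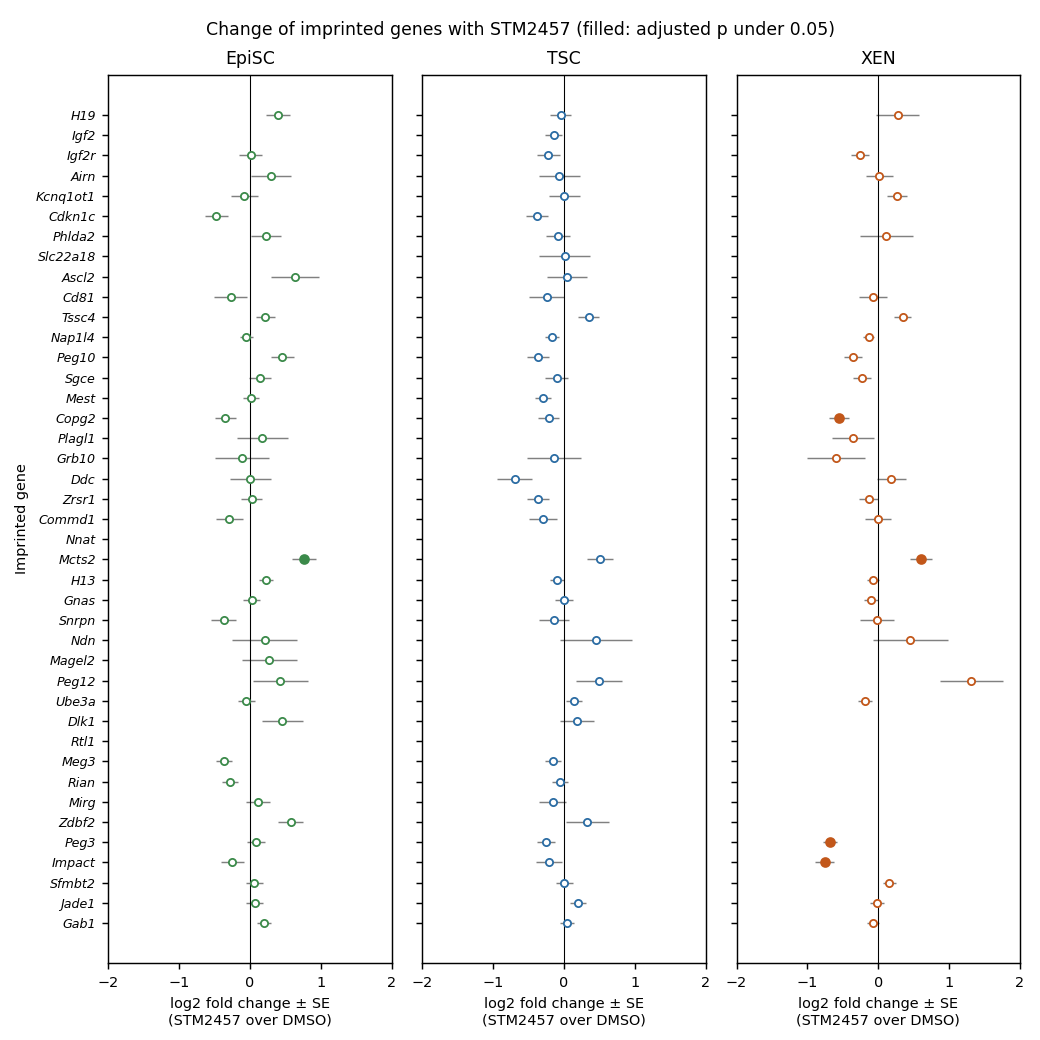
Log2 fold change of each imprinted gene with STM2457 over DMSO in EpiSC, TSC and XEN; points are edgeR estimates, bars are the standard error and filled points have an adjusted p under 0.05. Genes not tested or under a mean of 1 CPM in both arms have no point; Peg3 (-0.68), Impact (-0.76), Copg2 (-0.56) and Mcts2 (0.61) are filled in XEN and Mcts2 (0.77) in EpiSC.

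Mcts2 and Mcts1, its X-linked parent gene, share 83.8% of 671 aligned transcript positions, with a longest identical stretch of 29 bases. Only a read lying wholly within an identical stretch matches both, and a longer read of the aligned part spans a difference. Mcts1 had a mean of 59.9 CPM with STM2457 against 72.5 CPM with DMSO in EpiSC. Its means were 15.04 CPM with STM2457 against 19.6 CPM with DMSO in TSC, and 13.5 CPM with STM2457 against 15.7 CPM with DMSO in XEN. The means thus moved opposite to those of Mcts2 in each line, with a mean log2 effect of -0.29 ± 0.0973 (edgeR adjusted p = 0.0584). In XEN the Mcts1 arms overlapped, at 13.0, 10.3 and 17.2 CPM with STM2457 against 17.1, 15.2 and 14.8 CPM with DMSO. H13, in whose intron Mcts2 lies on the same strand, had a log2 fold change of 0.22 ± 0.0982 in EpiSC (adjusted p = 0.298). Its mean was 108 CPM with STM2457 against 116 CPM with DMSO in TSC, and 83.4 CPM with STM2457 against 87.6 CPM with DMSO in XEN. Whether intronic reads of H13 were counted to Mcts2 was not tested.

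Genes that work with imprinted genes were examined by list. Of 20 tested factors that keep or read imprints, 7 were called in the mean effect, 2 higher and 5 lower (median -0.05), against 13.4% of all tested genes. Trim28, the corepressor recruited by ZFP57, fell by 0.48 ± 0.111 in EpiSC, to 585 and 542 CPM with STM2457, against 779 and 790 CPM with DMSO (edgeR adjusted p = 0.039). Setdb1, the H3K9 methyltransferase that TRIM28 recruits, rose by 0.34 ± 0.0907 in XEN, to 103, 101 and 108 CPM with STM2457, against 73.6, 86.3 and 85.5 CPM with DMSO (adjusted p = 0.0413). In the mean effect Setdb1 (0.26) and Zfp445 (0.19), a zinc finger protein that binds imprinting control regions, rose, and Ezh2 (-0.36) and Eed (-0.27) of Polycomb complex PRC2, Trim28 (-0.23), Uhrf1 (-0.19), which brings DNMT1 to replicated DNA, and Smchd1 (-0.18) fell.

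Of 28 other imprinted genes tested, 2 were called in XEN and 1 in EpiSC, with medians of 0.06 and 0.16, and 0 in TSC (median 0.03), against 4.15%, 1.68% and 0.966% of all tested genes. Trappc9, whose locus holds Peg13, fell by 0.54 ± 0.124 in XEN and by 0.65 ± 0.138 in EpiSC, standing in EpiSC at 20.6 and 18.96 CPM with STM2457, against 31.9 and 30.1 CPM with DMSO. Zfp64, a zinc finger gene, rose by 0.45 ± 0.103 in XEN.

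Of 14 genes of the IGF system, 2 rose in XEN (median 0.35) and 1 fell in TSC, and 3 rose and 0 fell in the mean effect (median 0.18). Of all tested genes 4.15% were called in XEN, 0.966% in TSC and 13.4% in the mean effect. Igf1r, the receptor through which IGF2 signals, stood at 20.6, 28.2 and 22.4 CPM with STM2457 in XEN, against 12.1, 16.8 and 8.42 CPM with DMSO, and rose by 0.95 ± 0.185 (edgeR adjusted p = 0.00835). Insr, the insulin receptor, stood at 129, 130 and 130 CPM with STM2457 in XEN, against 70.2, 92.5 and 106 CPM with DMSO, and rose by 0.53 ± 0.117 (adjusted p = 0.016). Igf1r (0.72), Insr (0.46) and the adaptor gene Irs2 (0.37) rose in the mean effect. Igfbp4, an IGF-binding protein gene, fell by 1.49 ± 0.328 in TSC at low levels, to 0.562 and 0.884 CPM with STM2457, against 2.28 and 1.86 CPM with DMSO.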

How the data were processed

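The submitters' processing notes name FastQC, Trim Galore, the aligner STAR, the counter featureCounts and build GRCm39, without versions; the labels name a stranded total RNA kit. The values deposited are whole-number counts by gene and library, with no normalization by the authors. Reads that map to several places or to overlapping genes may be lost or shared, depending on settings not given in the sources used here. Gene names came from Ensembl identifiers; 3281 of 55416 had no name. Lengths, strands and exons came from GENCODE M21 on GRCm38, another build, so these are approximate, and promoter and microRNA coordinates are GRCm38.p6.

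All 14 libraries were fitted in 1 model of 6 groups in edgeR 4.0.16 (R 4.3.3; limma 3.58.1) with TMM scaling, a filter at a minimum count of 10 and total of 15, which left 18430 genes, and a robust two-sided quasi-likelihood F test, with Benjamini-Hochberg adjustment over all tested genes and calls at an adjusted p under 0.05. The SE was obtained by dividing the absolute log2 fold change by the root of F. CPM are counts scaled to a common TMM-adjusted library total. Genes at 0 in a group were given a bound from 3 counts over that group. Alternatives were DESeq2 1.42.0, RLE size factors, totals without mitochondrial and histone genes, no filter, fits of single lines, a replicate block, a minimum fold of 1.2 and leaving out each library; scaling to ribosomal protein genes and the XEN block fit were added after seeing the data. The fits were also run on simulated counts with the same spread for all lines and genes. That run cannot test the pooling of lines with unlike spread.

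Replicate numbers were checked for pairing by the correlation of same-numbered deviations from group means. It was 0.22, 0.38 and 0.34 for the XEN pairs, from which a pairing was inferred, and -0.0027 and -0.012 in TSC and EpiSC. Beyond the number, nothing in the labels pairs the libraries of any line. Values per library are given for members called in a treatment test and for the member of each cluster with the largest fold between lines at 5 CPM or more, and from each other list up to 3 genes with the smallest adjusted p in a comparison are named, plus those that say what a count holds. Igf2, Igf2r, Kcnq1ot1, Phlda2, Meg3, Mirg, Dlk1 and Peg10, shown by library beyond this rule, were chosen after their values were seen. The members, lists and this rule were chosen with earlier results of these data known.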

Additional observations from a re-analysis of the deposited data

Results flagged for a closer look

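The effect of STM2457 differed between lines for Peg3 (adjusted p = 0.00856) and Impact (adjusted p = 0.0119) in the edgeR test of the difference with the replicate number as a block. Without the block the same test gave adjusted p-values of 0.546 and 0.925. Peg3 with STM2457 lay below DMSO in 3 of 3 XEN libraries, and its log2 fold change was -0.68 in XEN, -0.25 in TSC and 0.08 in EpiSC. That of Impact was -0.76, -0.21 and -0.24.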

How the results depend on the processing

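The replicate block gave 8 in XEN, 6 in TSC, 9 in EpiSC, 10 in the mean effect and 2 that differed between lines. Without it these counts were 4, 0, 1, 6 and 0. Of all 18430 tested genes, 2448, 2036, 2427, 4722 and 262 were called with the block. Without it 764, 178, 309, 2470 and 1 were called, so the calls rose over all genes. In TSC and EpiSC samples share only a number, and in XEN the pairing was inferred from these data. Fits of single lines gave 0 in XEN, 13 in TSC and 12 in EpiSC, against 0.191%, 30.2% and 29.2% of genes tested there. The counts that follow stand without a share of all genes and compare settings only. A minimum fold of 1.2 gave 2 in XEN, 0 in EpiSC and 1 in the mean effect, DESeq2 gave 2 in TSC, 7 in EpiSC and 1 differing between lines, no filter gave 2 in EpiSC and 2 differing, and ribosomal protein scaling gave 2 in XEN. That scaling moved the median of all genes by 0.11 in TSC and 0.12 in EpiSC. Leaving out 1 library gave 2 to 3 in XEN, 0 to 0 in TSC, 0 to 4 in EpiSC (4 without XEN DMSO 2 and 2 without XEN DMSO 1), 3 to 6 in the mean effect and 0 to 0 differing between lines. A lone remaining library is then assumed to vary like the other groups. Between lines these counts were 32 to 33 in TSC against XEN, 31 to 33 in EpiSC against XEN and 30 to 34 in EpiSC against TSC, and no called member changed sign with RLE size factors, DESeq2 or totals without mitochondrial and histone genes. No named treatment call changed sign in any alternative run; those of Peg3 and Impact in XEN were lost only in the fit of XEN alone (22 of 23 alternatives held). The causes were not tested. Members under about 1 CPM rest on few counts, and XEN libraries are the shallowest.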

Other observations

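Among the tested protein-coding members, 5 have a single annotated exon (Mcts2, Zrsr1, Ndn, Magel2 and Peg12). Of these, 2 rose in the mean effect of STM2457, Mcts2 and Peg12, and 0 fell, with a median log2 effect of 0.37. Of 28 members with more exons 1 rose and 3 fell (median -0.05). Magel2 and, with more exons, Igf2, Ascl2, Mest and Dlk1 could not be called, having 0 counts in a line. Over all tested protein-coding genes, 12.1% of 439 genes with a single exon rose and 1.37% fell (median 0.14), against 9.66% and 6.96% of 13873 genes with more exons (median 0.00). The sequence GGAC, at the core of the motif METTL3 methylates, occurred at a median of 4.11 per kb of transcript in genes with a single exon and 4.19 in the others; Peg12 had 6.82 and Mcts2 3.29. Zrsr1, also a retrogene, had a mean effect of -0.16 and its parent gene Zrsr2 one of -0.03. Transcripts came from GENCODE M21.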
